A study of Mus musculus with 6 samples.

Results

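The subunits that surround the class I histone deacetylases in the SIN3, NuRD, CoREST, MiDAC and NCoR corepressor complexes were followed in CD4+ T cells with a conditional deletion of Hdac1. A list of 35 non-deacetylase subunits was matched by gene symbol to the deposited count table, and each of the 35 symbols matched 1 of its 55536 genes. By complex, 13 belonged to SIN3, 9 to NuRD, 2 to both of these, 4 to CoREST, 3 to the mitotic deacetylase complex MiDAC and 4 to NCoR. Messenger RNA was measured in 3 HDAC1-cKO and 3 WT libraries on the C57BL/6 strain. HDAC1-cKO cells had the genotype 2D2-Hdac1fl/fl-Cd4-Cre+, in which Cre recombinase driven by the Cd4 promoter acts in cells of the T lineage, and WT cells had the genotype 2D2-Hdac1fl/fl-Cd4-Cre-, so that the controls also carried floxed Hdac1 alleles and the 2D2 T cell receptor, which recognises a myelin oligodendrocyte glycoprotein (MOG) peptide. Naive CD45.2+ donor cells were injected into CD45.1+ recipients, and 18 hours later the recipients were immunised in the footpad with this peptide in CFA, an oil adjuvant. After 4 more days 500 donor-derived 2D2+ CD4+ cells per library were sorted from popliteal lymph nodes. Each library pooled 2 mice, of ages not given in the sources used here. In these bulk samples, fewer cells that use a gene and less RNA per cell cannot be told apart.

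Class I histone deacetylases do not recognise DNA by themselves. They work inside multi-subunit complexes, in which scaffold proteins hold the enzyme, reader subunits bind histone tails or methylated DNA, and DNA-binding transcription factors bring the whole assembly to a gene. HDAC1 and HDAC2 share SIN3, NuRD, CoREST and MiDAC, whereas HDAC3 is the catalytic subunit of NCoR. In T cells these complexes are known partners of lineage regulators such as Ikaros proteins and BCL6, and subunit paralogs that fill the same position can give a complex different properties.

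Hdac1 itself fell to 15.8 ± 1.32 CPM (reads scaled to a common library total) in HDAC1-cKO, against 237.9 ± 5.06 CPM in WT (SD, n = 3 libraries per genotype; edgeR adjusted p = 9.59e-06). Total counts were 19956153 to 36307610 in HDAC1-cKO and 39036751 to 55900237 in WT, so WT libraries were deeper. One library, HDAC1-cKO replicate 2, stood apart from the rest on the second principal component, at -58.9 against -18.0 to 37.4 in the other libraries. Summed CPM of 8 T cell markers was 6070 to 7130 in HDAC1-cKO and 7180 to 8450 in WT. Summed levels of other cell types were low in every library: 5 B cell markers reached 32.3 to 64.4 CPM in HDAC1-cKO, against 16 to 40.8 CPM in WT, and 4 CD8 and NK markers 66.3 to 74.8 CPM in HDAC1-cKO, against 48.3 to 62.7 CPM in WT. The 6 myeloid and dendritic, 4 stromal and endothelial and 2 haemoglobin genes summed to 4.75 to 10.5, 58 to 81.1 and 0.368 to 1.1 CPM in HDAC1-cKO, against 5.81 to 25, 63.9 to 99.4 and 0.546 to 2.04 CPM in WT. The stromal and endothelial sum was nearly all Pecam1, at 57.7 to 80.3 CPM in HDAC1-cKO, against 63.3 to 98.4 CPM in WT, and Col1a2 was at 0 in all 6 libraries. Among the myeloid and dendritic markers, Csf1r and Flt3 were at 0 in all 6 libraries, Lyz2 had 0.981 to 3.75 CPM in HDAC1-cKO, against 2.03 to 22.6 CPM in WT, and Cd68 had 2.48 to 6.21 CPM in HDAC1-cKO, against 2.01 to 2.2 CPM in WT. The CD8 and NK sum was nearly all Cd8b1, at 64.6 to 71.4 CPM in HDAC1-cKO, against 45 to 57 CPM in WT without overlap, whereas Cd8a averaged 1.5 CPM in HDAC1-cKO, against 1.14 CPM in WT, Klrb1c 1.31 CPM in HDAC1-cKO, against 2.99 CPM in WT, and Ncr1 was at 0 in all 6 libraries. None of the 6 myeloid, dendritic, CD8 and NK markers that could be tested passed (edgeR), and Lyz2, Cd68 and Cd8b1 had unadjusted p under 0.05 (adjusted p = 0.206, 0.153 and 0.127). The summed T cell markers were lower in every HDAC1-cKO library than in any WT library, though the nearest sums were 7130 and 7180 CPM. Trac was the largest term (mean CPM: 3366 for HDAC1-cKO, 3939 for WT). Of the 8 markers, 7 had negative log2 differences and 5 separated the genotypes. Cd3e and Cd2 passed the test (edgeR adjusted p = 0.0102 and 0.031). Cd4 went the other way, with a log2 difference of 0.099 (edgeR adjusted p = 0.87). Libraries of the genotypes overlapped for Cd4, Cd3d and Lck. The part of these levels in the results below was not tested.

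The genotypes were compared to ask whether deletion of Hdac1 changes the expression of the genes that encode its partner subunits. None of 34 tested members passed the threshold of an adjusted p under 0.05 in edgeR's quasi-likelihood test, in which 1.97% of all 15519 tested genes were called (0.979% higher and 0.992% lower in HDAC1-cKO). At an unadjusted p under 0.05, 3 members were higher and 1 was lower in HDAC1-cKO, together 11.8% of the members beside 17.0% of all tested genes. DESeq2 called 1 member higher and 1 lower (5.88% of members, beside 8.78% of all genes in that fit), limma-voom with sample weights called 2 higher and 1 lower (8.82%, beside 10.2%), and limma on log2(FPKM + 1) called 1 higher and 0 lower (2.94%, beside 2.60%). The median log2 fold change was 0.044 over the members and -0.002 over all tested genes, with 19 members above 0 and 15 below. In 30 of the 34 the 95% interval lay within a 2-fold change either way, or 88.2%, beside 80.7% of the 10332 tested genes at 4 CPM or more, the level of every tested member but Rcor2, and 57.2% of all tested genes. The 4 others were Rcor2, Chd3, Mbd3 and Mbd2. Libraries of the genotypes did not overlap for 3 members with higher and 3 with lower values in HDAC1-cKO, or 17.6% of the members, beside 24.6% of all tested genes (12.7% higher and 11.8% lower). Those 6 were Rcor2, Sin3a and Gatad2a, and Tbl1x, Arid4b and Elmsan1. Rcor2, also 1 of the 3 members higher at an unadjusted p under 0.05, passed the low-count filter only through its HDAC1-cKO libraries.

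**Figure D1:**
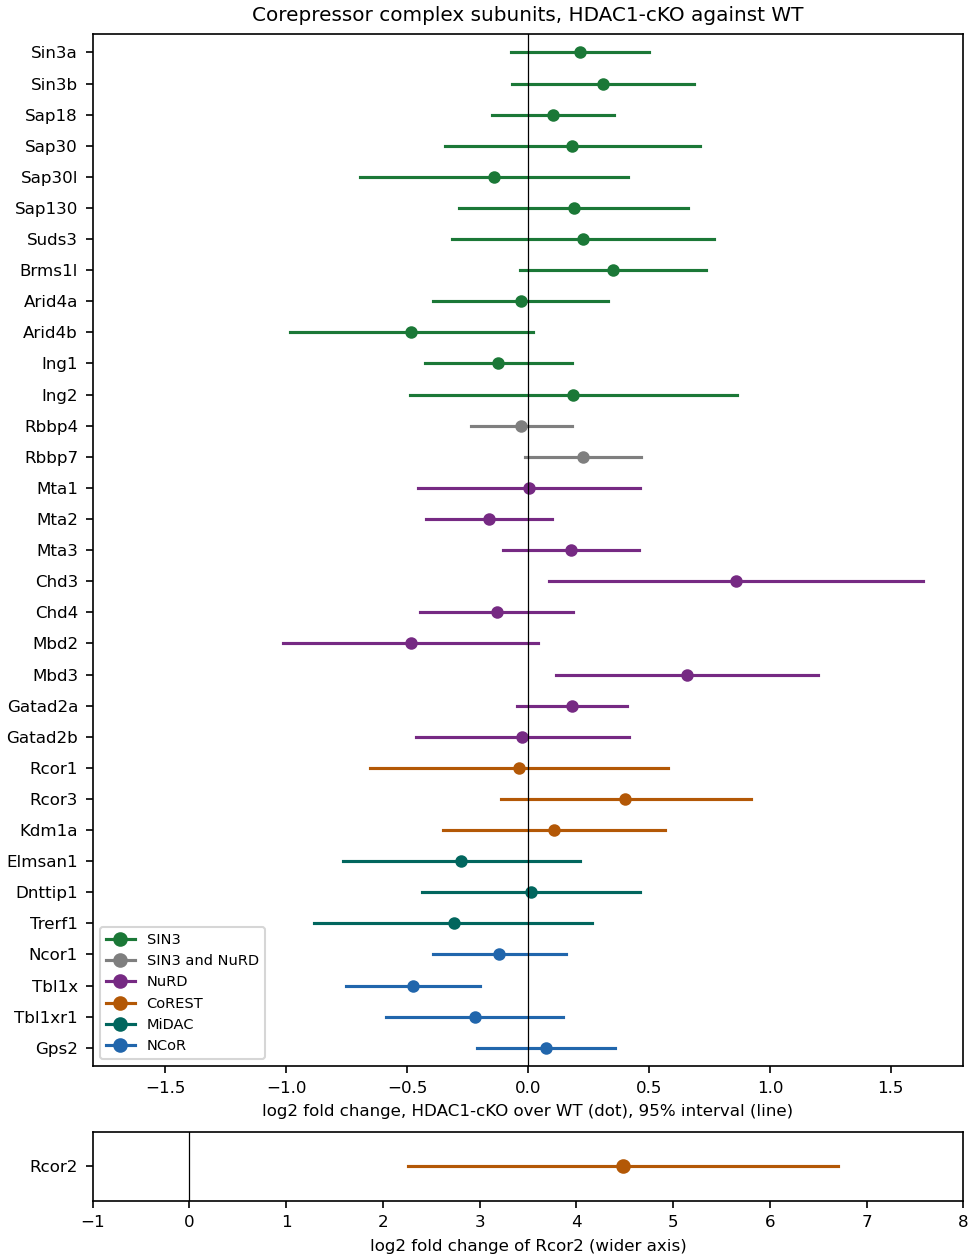
Log2 fold change (HDAC1-cKO over WT) of the 34 tested subunits, coloured by complex, with dots for the edgeR estimate and lines for its 95% interval; Rcor2 has its own, wider axis. Apart from Rcor2 at 4.48, the estimates lie between -0.49 for Mbd2 and 0.86 for Chd3.

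Within the CoREST complex, Rcor2 was the subunit with the greatest contrast between genotypes. RCOR proteins link the deacetylase to the histone demethylase KDM1A. The 3 Rcor genes fill the same position, and Rcor2 stood far below Rcor1 and Rcor3 in level. The 250 bases before the RefSeq start of each are therefore shown from the RefSeq promoter windows of GRCm38.p6. They run 5′ to 3′ on the strand of the gene, with each CG dinucleotide in capitals.
Rcor2: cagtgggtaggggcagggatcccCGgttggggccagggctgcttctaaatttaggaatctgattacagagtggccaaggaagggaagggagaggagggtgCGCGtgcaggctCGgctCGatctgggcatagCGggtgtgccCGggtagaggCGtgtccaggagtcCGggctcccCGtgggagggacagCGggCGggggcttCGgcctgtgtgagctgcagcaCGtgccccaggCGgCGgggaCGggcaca
Rcor1: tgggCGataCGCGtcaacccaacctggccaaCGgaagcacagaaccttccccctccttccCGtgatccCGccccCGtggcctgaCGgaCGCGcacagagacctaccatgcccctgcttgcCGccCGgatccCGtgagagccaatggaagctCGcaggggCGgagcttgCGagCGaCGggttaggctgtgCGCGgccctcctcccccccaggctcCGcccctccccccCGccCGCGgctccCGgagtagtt
Rcor3: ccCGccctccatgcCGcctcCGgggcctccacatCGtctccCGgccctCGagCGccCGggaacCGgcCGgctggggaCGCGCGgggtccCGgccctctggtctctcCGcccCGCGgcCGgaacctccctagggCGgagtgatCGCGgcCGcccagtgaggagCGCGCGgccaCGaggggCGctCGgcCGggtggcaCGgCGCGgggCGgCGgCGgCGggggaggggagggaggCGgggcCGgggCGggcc
These windows are chr19:7267144-7267393 on the plus strand for Rcor2, chr12:111039117-111039366 on the plus strand for Rcor1, and chr1:192138041-192138290 on the minus strand for Rcor3. They hold 17 CG dinucleotides for Rcor2, 25 for Rcor1 and 39 for Rcor3. Because CG reads the same on both strands, the count covers both. Of 32851 such windows in the table, whose median is 6, a share of 23.5% holds at least 17, 10.7% at least 25 and 1.6% at least 39. The GENCODE starts of all 3 genes lie upstream of the RefSeq starts, so the last bases of each window fall inside the GENCODE gene. A window was found for 28 of the 35 members.

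Rcor2 (ENSMUSG00000024968, chromosome 19, 7267325 to 7275225 on the plus strand, GRCm38) had 41, 57 and 29 reads in HDAC1-cKO replicates 1, 2 and 3, and 0, 8 and 1 reads in WT replicates 1, 2 and 3. This was 1.26, 1.53 and 1.42 CPM in HDAC1-cKO, against 0, 0.145 and 0.0263 CPM in WT. The WT values were too low for the low-count filter, so Rcor2 was tested only because of its HDAC1-cKO libraries. Its p and its separation thus come from a gene kept through the group in which it was high. All 3 HDAC1-cKO libraries lay close together and far above the WT libraries, which were the more deeply sequenced. The summed counts, 127 in HDAC1-cKO and 9 in WT, gave a ratio of 22.5 after scaling by the library totals used for CPM. Its exact 95% interval was 11.5 to 50.4, which covers counting error only. The fitted log2 fold change was 4.48 ± 0.97 (SE), with an edgeR adjusted p of 0.0605, so that Rcor2 did not pass the threshold. It passed under 6 of 20 alternatives, among them DESeq2 (adjusted p = 0.000146) and limma-voom (adjusted p = 0.0146), and the edgeR adjusted p was 0.0408 with no filter on low counts and 0.0246 with counts thinned to the smallest total, fits that called 1.73% and 2.73% of all genes. Leaving out any 1 library gave edgeR adjusted p values of 0.082 to 0.202 and log2 fold changes of 3.90 to 6.53, with the highest fold change without WT replicate 2, which held 8 of the 9 WT reads. No exon base of Rcor2 lies in an exon of another gene, and 0% of its 50-base stretches occur in transcripts of another gene.

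Even in HDAC1-cKO, Rcor2 was the weakest of the 3 Rcor genes. On the deposited FPKM scale, which divides by gene length, Rcor2 averaged 0.489 ± 0.0462 in HDAC1-cKO and 0.0201 ± 0.0271 in WT (SD, n = 3). Rcor1 averaged 3.29 ± 0.983 FPKM in HDAC1-cKO and 3.38 ± 0.906 FPKM in WT, and Rcor3 2.59 ± 0.626 FPKM in HDAC1-cKO and 1.96 ± 0.0973 FPKM in WT. Rcor2 made up 7.0, 11 and 6.23% of the summed Rcor FPKM in HDAC1-cKO, against 0, 0.787 and 0.20% in WT. Rcor1 made up 49.3 to 54.7% in HDAC1-cKO and 59.2 to 68.3% in WT, also without overlap. Rcor3 had 12, 8.35 and 13.7 CPM in HDAC1-cKO, against 8.88, 8.76 and 8.03 CPM in WT. HDAC1-cKO replicate 2 lay within the WT range of Rcor3, and its log2 difference of 0.40 ± 0.22 (SE; edgeR, adjusted p = 0.422) was 0.58 without that library. Opposite-strand genes cover 8.3% of Rcor3's exon bases, so some of its reads could be theirs. Kdm1a, the demethylase of the complex, had 13.4, 15.4 and 18.9 CPM in HDAC1-cKO, against 12.2, 16.3 and 15.7 CPM in WT. These ranges overlapped, with a log2 difference of 0.11 ± 0.20 (SE), an edgeR adjusted p of 0.850 and a 95% interval of -0.35 to 0.57.

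**Figure D2:**
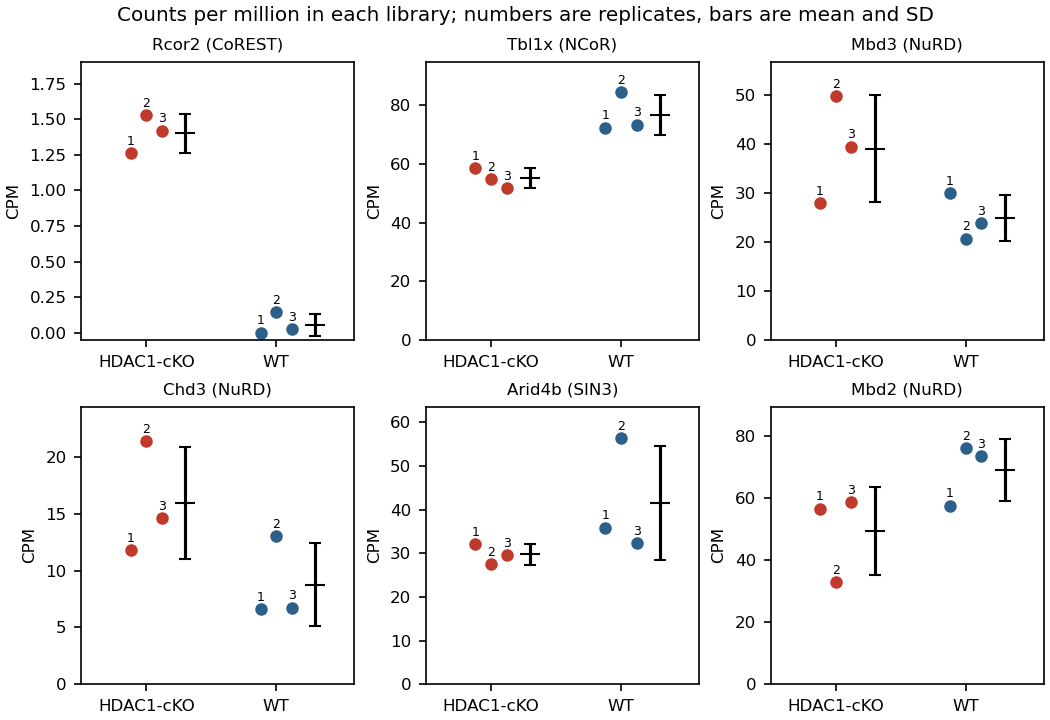
CPM of Rcor2, Tbl1x, Mbd3, Chd3, Arid4b and Mbd2 in each library, with HDAC1-cKO left of WT, replicate numbers above the points, and bars for mean and SD. Rcor2, Tbl1x and Arid4b separate the genotypes, whereas Mbd3, Chd3 and Mbd2 overlap.

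In NuRD, which joins deacetylation to a nucleosome-remodelling ATPase, the ATPase Chd3 and the methyl-CpG-binding domain gene Mbd3 had higher means in HDAC1-cKO, and Mbd2 had a lower one. None of the 9 NuRD subunits passed the threshold (edgeR), beside 1.97% of all tested genes. Of the 9, 5 had positive and 4 negative fold changes, and the median was 0.005. Chd3 had 11.8, 21.4 and 14.6 CPM in HDAC1-cKO, against 6.58, 13.0 and 6.72 CPM in WT. Replicate 2 was the highest in each genotype, and WT replicate 2 lay above HDAC1-cKO replicate 1. The log2 difference was 0.86 ± 0.34 (SE; edgeR, adjusted p = 0.241). It stood at 0.58 when HDAC1-cKO replicate 2 was left out, and at 1.25 when WT replicate 2 was. Chd4, the more abundant ATPase, had 43.4, 57.5 and 50.1 CPM in HDAC1-cKO, against 52.4, 57.5 and 55.2 CPM in WT. The ranges overlapped, with a log2 difference of -0.13 ± 0.14 (SE) and a 95% interval of -0.45 to 0.19. As a share of the summed FPKM of both ATPases, Chd3 was 20.2, 25.6 and 21.2% in HDAC1-cKO, against 10.4, 17.3 and 10.1% in WT.

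MBD2 and MBD3 occupy the same place in NuRD in a mutually exclusive way. MBD2 binds methylated DNA, and mammalian MBD3 has largely lost that ability. Mbd3 had 28.0, 49.9 and 39.5 CPM in HDAC1-cKO, against 30.0, 20.7 and 23.9 CPM in WT, and HDAC1-cKO replicate 1 lay within the WT range. The log2 difference was 0.66 ± 0.24 (SE; edgeR, adjusted p = 0.203). Mbd2 had 56.5, 32.9 and 58.6 CPM in HDAC1-cKO, against 57.5, 76.1 and 73.4 CPM in WT, with a log2 difference of -0.49 ± 0.23 (SE) and an edgeR adjusted p of 0.336. HDAC1-cKO replicate 2 was the highest library for Mbd3 and the lowest for Mbd2. Without it the log2 differences were 0.43 and -0.27 (edgeR adjusted p = 0.315 and 0.339). Mbd2 took 49.1 ± 14% of the summed Mbd2 and Mbd3 FPKM in HDAC1-cKO and 67.8 ± 7.42% in WT (SD, n = 3), with 33.5% in HDAC1-cKO replicate 2 and overlap between the genotypes.

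The remaining NuRD subunits had log2 differences between -0.16 for Mta2 and 0.18 for Gatad2a. Mta2, whose product is one of 3 interchangeable MTA scaffolds that bind the deacetylase, was the most abundant of them at 47.7 ± 2.90 FPKM in HDAC1-cKO and 53.5 ± 4.97 FPKM in WT (SD, n = 3). Mta3 stood at 17.4 ± 1.52 FPKM in HDAC1-cKO and 15.5 ± 0.705 FPKM in WT, and Mta1 at 5.99 ± 1.04 FPKM in HDAC1-cKO and 5.99 ± 0.959 FPKM in WT. The Mta2 share of the 3 was 65.6 to 69.2% in HDAC1-cKO and 69.5 to 74.7% in WT, and the Mta3 share 23.6 to 25.6% in HDAC1-cKO and 18.9 to 21.9% in WT, each without overlap. Gatad2a, which bridges the MBD and CHD subunits, had 132, 145 and 134 CPM in HDAC1-cKO against 122, 120 and 121 CPM in WT. All HDAC1-cKO values were above all WT values by a narrow margin, at a log2 difference of 0.18 ± 0.10 (SE) and an edgeR adjusted p of 0.408. Its paralog Gatad2b was far weaker, at 2.02 ± 0.228 FPKM in HDAC1-cKO and 2.06 ± 0.393 FPKM in WT.

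The histone chaperones Rbbp4 and Rbbp7, which SIN3 and NuRD share, were the most abundant members together with the NCoR subunit Gps2. Rbbp7 had 349, 298 and 331 FPKM in HDAC1-cKO, against 299, 268 and 271 FPKM in WT. The lowest HDAC1-cKO library overlapped the highest WT library, and the log2 difference was 0.23 ± 0.10 (SE; edgeR, adjusted p = 0.317; limma-voom adjusted p = 0.0391). Rbbp4 had 87.3, 83.5 and 84.5 FPKM in HDAC1-cKO and 85.1, 85.2 and 90.9 FPKM in WT, with a log2 difference of -0.028 ± 0.090 (SE). Its 95% interval of -0.24 to 0.18 was the narrowest of the members. Rbbp7 supplied 78.1 to 80.0% of their summed FPKM in HDAC1-cKO and 74.8 to 77.8% in WT. The summed FPKM of the 35 members was 863 ± 16.8 in HDAC1-cKO and 803 ± 6.11 in WT (SD, n = 3), a sum in which Rbbp7 is the leading term. How reads were split is uncertain for both genes, since 17.2% of the 50-base stretches of Rbbp4 and 11.2% of those of Rbbp7 occur in transcripts of other genes, and opposite-strand exons cover 18.0% and 6.0% of their exon bases.

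**Figure D3:**
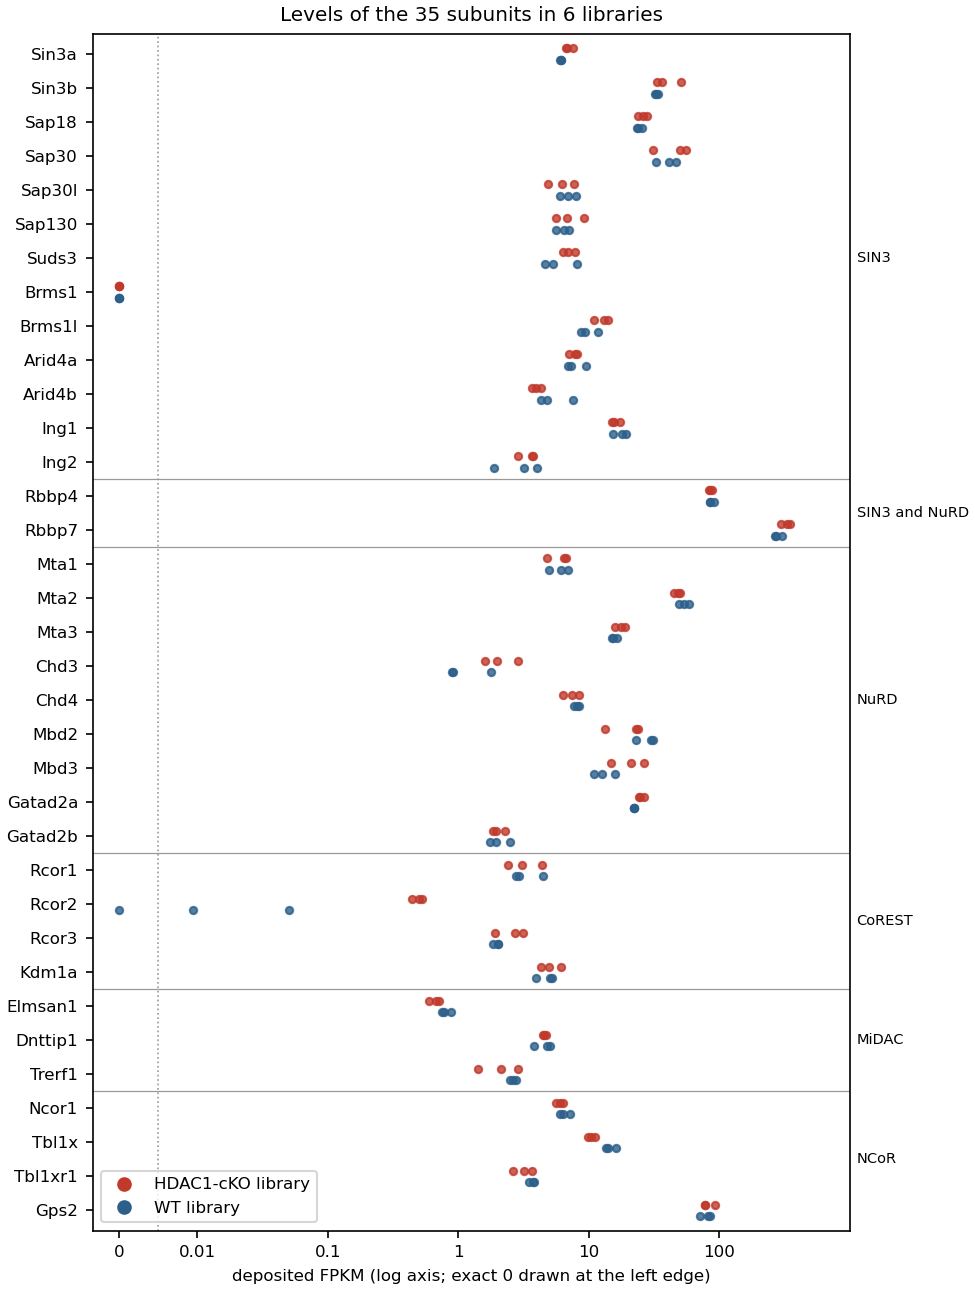
Deposited FPKM of the 35 subunits in each library on a log axis, HDAC1-cKO above WT for each gene, with exact zeros at the left edge. Rbbp7 reaches 349 FPKM, Rcor2 lies between 0.44 and 0.531 FPKM in HDAC1-cKO, and Brms1 is at 0 throughout.

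Of the SIN3 subunits, 12 were tested and 0 passed the threshold (edgeR), beside 1.97% of all tested genes. The count was also 0 at an unadjusted p under 0.05, with DESeq2 and with limma-voom, beside 17.0%, 8.78% and 10.2% of all genes. The 95% intervals of all 12 lay within a 2-fold change, as did those of 80.7% of tested genes at 4 CPM or more. With 12 genes, counts of 0 say little about SIN3 in particular. The median log2 fold change of the 12 subunits was 0.19, with 8 above 0 and 4 below. It was 0.066 with HDAC1-cKO replicate 2 left out and 0.057 with WT replicate 1 left out. Sin3b was the stronger of the scaffold genes at 40.4 ± 9.39 FPKM in HDAC1-cKO and 32.7 ± 1.09 FPKM in WT (SD, n = 3). It had 154, 236 and 168 CPM in HDAC1-cKO, against 146, 149 and 155 CPM in WT. HDAC1-cKO replicate 2 was far above the others, and the log2 difference of 0.31 ± 0.16 (SE; edgeR, adjusted p = 0.395) was 0.094 without it. Sin3a had 39.9, 35.5 and 35.8 CPM in HDAC1-cKO, against 32.3, 32.1 and 31.3 CPM in WT. Its libraries separated by genotype at a log2 difference of 0.22 ± 0.12 (SE) and an edgeR adjusted p of 0.438.

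Accessory SIN3 subunits had fold changes of either sign. Arid4b, which encodes a chromatin-binding subunit with an AT-rich interaction domain, had 32.1, 27.5 and 29.5 CPM in HDAC1-cKO, against 35.9, 56.4 and 32.3 CPM in WT. The genotypes did not overlap, but WT replicate 2 was far above the other WT libraries. The log2 difference was -0.48 ± 0.22 (SE; edgeR, adjusted p = 0.314), and -0.21 without WT replicate 2. Its paralog Arid4a had means of 38.9 ± 2.61 CPM in HDAC1-cKO, against 39.7 ± 6.95 CPM in WT. Brms1l had 36.8, 34.7 and 28.9 CPM in HDAC1-cKO, against 23.1, 30.9 and 24.7 CPM in WT, with a log2 difference of 0.35 ± 0.17 (SE) and an edgeR adjusted p of 0.342. Among the smaller adaptor subunits, Sap30 averaged 45.3 ± 12.8 FPKM in HDAC1-cKO and 40.0 ± 6.80 FPKM in WT, and Sap18 25.9 ± 1.98 FPKM in HDAC1-cKO and 24.2 ± 1.35 FPKM in WT (SD, n = 3). Suds3, which helps hold the deacetylase in the complex, averaged 7.06 ± 0.782 FPKM in HDAC1-cKO and 6.04 ± 1.87 FPKM in WT. Sap130 averaged 7.20 ± 1.84 FPKM in HDAC1-cKO and 6.35 ± 0.746 FPKM in WT. Sap30l averaged 6.28 ± 1.44 FPKM in HDAC1-cKO and 6.95 ± 0.971 FPKM in WT. The histone-tail readers Ing1 and Ing2 averaged 16 ± 1.25 and 3.44 ± 0.492 FPKM in HDAC1-cKO, against 17.5 ± 1.99 and 3.03 ± 1.09 FPKM in WT. For Sap18, 15.3% of its 50-base stretches also occur in other transcripts, mainly those of Sap18b, so its count is uncertain.

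Brms1, the paralog of Brms1l, was the 1 member that could not be tested, with 0 counts in all 6 libraries. Its gene (ENSMUSG00000080268, chromosome 19, 5041354 to 5049917 on the plus strand, GRCm38) lies almost wholly inside the span of AC124502.3, a protein-coding gene model on the same strand, whose exons hold 79.0% of the Brms1 exon bases and 74.4% of its 50-base stretches. AC124502.3 was also at 0 in every library. How the read counter treated reads shared by overlapping genes is not given in the sources used here, so the zeros of Brms1 cannot be read as absence of its transcript. No other member had more than 1.1% of its exon bases in a same-strand gene.

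In NCoR, Tbl1x had the lowest p of the 4 subunits. It encodes a WD-repeat protein that binds histones within the complex. Tbl1x had 58.6, 54.9 and 51.8 CPM in HDAC1-cKO, against 72.4, 84.5 and 73.4 CPM in WT. Every HDAC1-cKO library was below every WT library, at 71.9% of the WT level. The log2 difference was -0.48 ± 0.12 (SE; edgeR, adjusted p = 0.0869), with a 95% interval of -0.75 to -0.20. DESeq2 and limma-voom called it lower (adjusted p = 0.0069 and 0.0226), and over the alternatives its log2 difference ran from -0.53 to -0.41 with adjusted p values of 0.0069 to 0.28. Its paralog Tbl1xr1 had 31.9, 22.7 and 27.4 CPM in HDAC1-cKO, against 30.3, 32.3 and 32.8 CPM in WT, with overlap and a log2 difference of -0.22 ± 0.16 (SE) and an edgeR adjusted p of 0.549. Tbl1x held 74.9 to 79.8% of their summed FPKM in HDAC1-cKO and 78.4 to 81.0% in WT. The scaffold Ncor1, which activates HDAC3, had 71.3, 63.8 and 68.4 CPM in HDAC1-cKO, against 68.7, 80.9 and 71.1 CPM in WT, with overlap and -0.12 ± 0.12 (SE) as the log2 difference (edgeR adjusted p = 0.694). Gps2 was abundant for its length, at 82.6 ± 8.98 FPKM in HDAC1-cKO and 78.8 ± 6.51 FPKM in WT (SD, n = 3), with a 95% interval of the log2 difference from -0.21 to 0.36.

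MiDAC genes stood at low levels, from 0.664 FPKM for Elmsan1 to 4.56 FPKM for Dnttip1 in HDAC1-cKO, and from 0.805 to 4.53 FPKM for the same genes in WT. The scaffold gene Elmsan1 had 4.48, 5.06 and 5.34 CPM in HDAC1-cKO, against 6.61, 5.63 and 5.74 CPM in WT, which did not overlap. Its log2 difference was -0.28 ± 0.21 (SE; edgeR, adjusted p = 0.580). Trerf1, a zinc finger subunit, had 10.1, 20.4 and 15.0 CPM in HDAC1-cKO, against 18.7, 17.9 and 19.8 CPM in WT. The spread among HDAC1-cKO libraries covered the whole WT range, and the log2 difference of -0.31 ± 0.25 (SE; edgeR, adjusted p = 0.601) was -0.60 with replicate 2 of HDAC1-cKO left out and -0.088 with replicate 1 left out. Dnttip1, the dimerising subunit, had 8.34, 8.78 and 8.23 CPM in HDAC1-cKO, against 7.06, 9.30 and 8.74 CPM in WT. The HDAC1-cKO values lay inside the WT range, with a log2 difference of 0.014 ± 0.196 (SE) and an edgeR adjusted p of 0.983. An opposite-strand gene covers 10.7% of the exon bases of Dnttip1.

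Paralogs that fill the same position were compared as shares of their summed FPKM, with 15 shares tested by an exact two-sided permutation test over libraries. With 3 against 3 libraries this test cannot give a p below 0.1. That smallest p was reached by 7 shares, those of Arid4a, Mta2, Mta3, Chd3, Rbbp4, Rcor1 and Rcor2, each with a Benjamini-Hochberg adjusted p of 0.214. Shares within a paralog group add up to the whole, so those of Mta2 and Mta3, and of Rcor1 and Rcor2, are not independent. Libraries also did not overlap for 24.6% of all tested genes taken singly, and shares of paralogs outside the list were not computed. The Arid4a share of Arid4a and Arid4b was 65.4 to 66.8% in HDAC1-cKO and 55.7 to 62.7% in WT. Shares of Sin3a, Sap30, Ing1, Mta1, Mbd2, Gatad2a, Rcor3 and Tbl1x overlapped between genotypes, with exact p values of 0.2 to 0.8. With counts per base of the longest transcript in place of FPKM, all 15 differences kept their direction. That change only multiplies each gene by a fixed factor in every library. It cannot reorder the libraries for a pair of paralogs, so it is not an independent check.

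**Figure D4:**
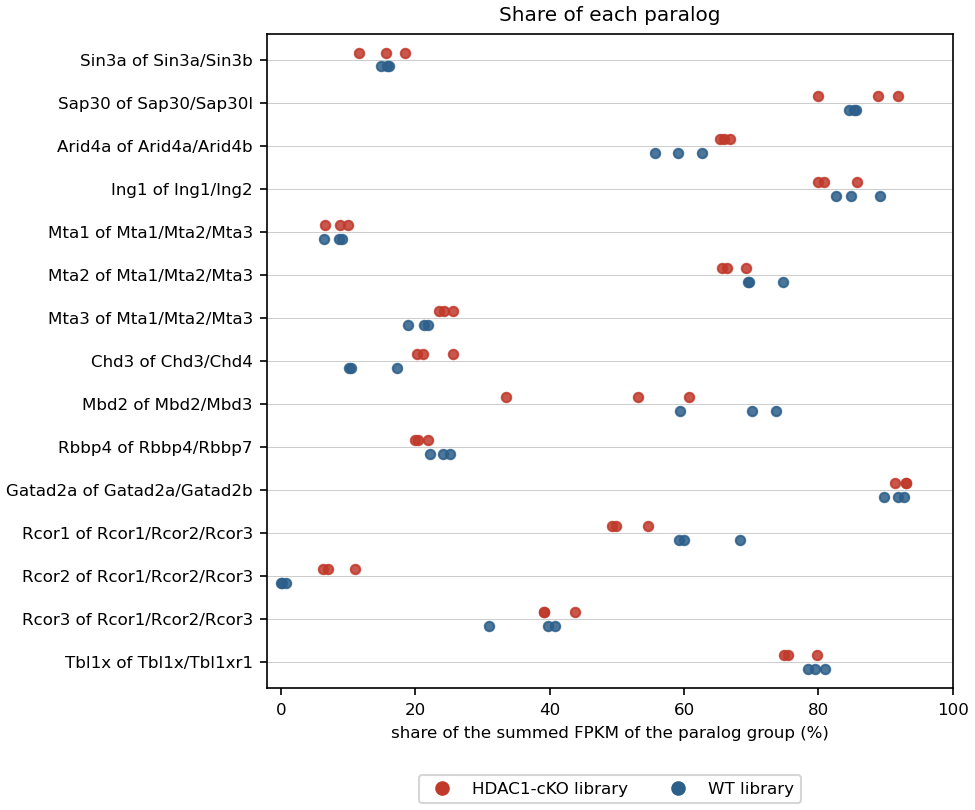
Share of each paralog in the summed FPKM of its paralog group (percent), 1 point per library, HDAC1-cKO above WT. The Rcor2 points lie between 6.23 and 11% in HDAC1-cKO and at or under 0.787% in WT, and the Mbd2 points spread from 33.5 to 60.7% in HDAC1-cKO.

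Transcript GC content accompanied the spread among HDAC1-cKO libraries. Over the 34 tested members, the log2 CPM of HDAC1-cKO replicate 2 minus the mean of replicates 1 and 3 correlated with the GC content of the longest transcript at a Pearson r of 0.49, and over 8330 genes at 10 CPM or more at 0.57; the members share the same libraries, and the value is a description. Each other library was likewise set against the rest of its genotype, so replicate 2 is part of the reference for HDAC1-cKO replicates 1 and 3. Over the members this r was -0.61 for HDAC1-cKO replicate 1, 0.02 for HDAC1-cKO replicate 3 and -0.17 to 0.12 for the WT libraries. Over the 8330 genes it was -0.52, -0.39 and -0.09 to 0.21. Against the mean of all libraries, r over these genes was -0.217, 0.586 and -0.074 for HDAC1-cKO replicates 1, 2 and 3, and -0.280 to -0.079 for WT. Mbd3, with 62.9% GC, stood 0.59 above in HDAC1-cKO replicate 2, Chd3 with 56.1% GC stood 0.70 above, and Sin3b with 56.1% GC stood 0.55 above. Trerf1, with 53.0% GC, stood highest at 0.72. Mbd2, with 56.5% GC, and Sap30, with 53.1% GC, lay the other way, at -0.80 and -0.75. With offsets that took out the GC trend of every library, the log2 difference of Mbd3 was 0.50, that of Chd3 0.77 and that of Rcor2 4.37, and that of Arid4b, with 40.7% GC, was -0.28 (edgeR adjusted p = 0.196, 0.214, 0.0537 and 0.539). No member was called under these offsets or without HDAC1-cKO replicate 2, although 3.14% and 3.88% of all genes tested in those fits were called.

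**Figure D5:**
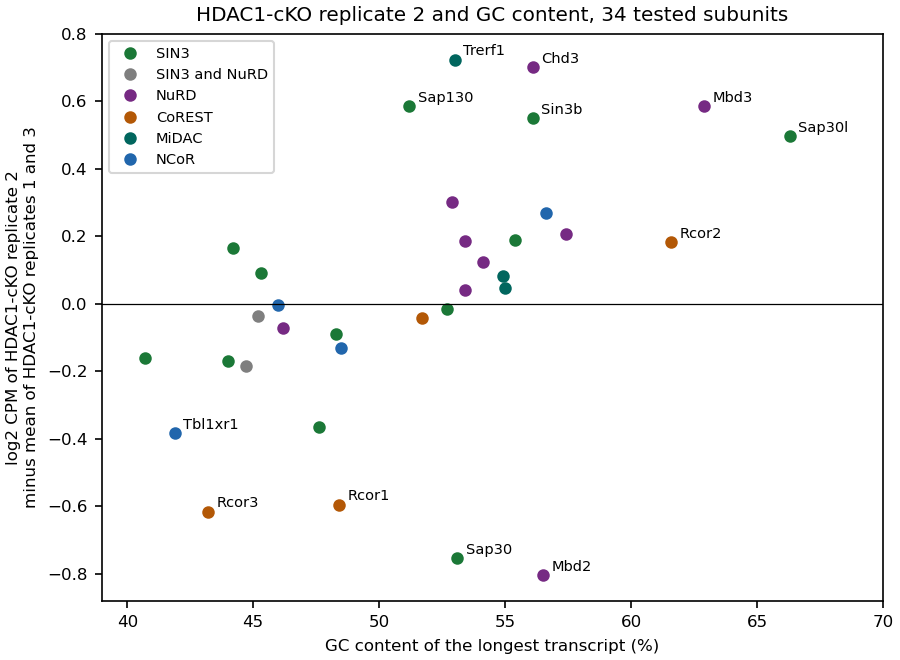
Log2 CPM of HDAC1-cKO replicate 2 minus the mean of HDAC1-cKO replicates 1 and 3 (vertical axis) against GC content of the longest transcript in percent (horizontal axis) for the 34 tested subunits, coloured by complex. Chd3, Mbd3, Sin3b and Sap30l lie high at GC contents of 56.1% or more, but Trerf1 (53.0% GC) lies highest at 0.72 and Sap130 (51.2% GC) lies at 0.59. Mbd2 (56.5% GC) and Sap30 (53.1% GC) lie lowest at -0.80 and -0.75.

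The deacetylases that these subunits hold were set beside them. Hdac2, which shares 4 of the complexes with HDAC1, had 89.8, 54.0 and 116 CPM in HDAC1-cKO, against 76.4, 87.5 and 71.2 CPM in WT, so that HDAC1-cKO replicate 2 was the lowest library and HDAC1-cKO replicate 3 the highest (log2 difference 0.14 ± 0.25, SE; edgeR adjusted p = 0.840). Hdac3, the NCoR enzyme, had 101, 102 and 112 CPM in HDAC1-cKO, against 79.8, 69.9 and 85.6 CPM in WT. Its libraries did not overlap, the log2 difference was 0.42 ± 0.12 (SE; edgeR, adjusted p = 0.118), and DESeq2 and limma-voom gave adjusted p values of 0.0287 and 0.0292. Of 21 deacetylases and further subunits of these complexes listed as context, 20 were matched and 19 tested, and 1, Hdac1, passed the threshold. Of 26 DNA-binding proteins known to recruit these complexes, 23 were tested and 0 passed (edgeR), beside 1.97% of all tested genes. At an unadjusted p under 0.05, 2 were higher and 4 lower (26.1%, beside 17.0% of all tested genes). The 3 of lowest p, named after their values were seen, were Rbpj, the DNA-binding protein of Notch signalling, Ikzf3, an Ikaros family member, and Mxd1, a MYC antagonist that recruits SIN3. Rbpj had 23.3, 13.6 and 14.8 CPM in HDAC1-cKO, against 36.6, 28.7 and 34.3 CPM in WT (edgeR adjusted p = 0.0801). Ikzf3 had 55.8, 50.8 and 46.1 CPM in HDAC1-cKO, against 21.6, 34.4 and 32.2 CPM in WT (edgeR adjusted p = 0.0819). Mxd1 had 14.3, 19.2 and 20.1 CPM in HDAC1-cKO, against 34.7, 32.1 and 24.8 CPM in WT (edgeR adjusted p = 0.0877). DESeq2 and limma-voom, which called 8.78% and 10.2% of all genes, called all 3 in these directions. Ikzf1, another Ikaros family gene on the list, went the opposite way to Ikzf3. It had 181, 164 and 200 CPM in HDAC1-cKO, against 232, 230 and 258 CPM in WT (edgeR adjusted p = 0.117).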

How the data were processed

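Polyadenylated RNA of sorted T cells was turned into cDNA by Smart-seq2, made into unstranded Nextera XT libraries and sequenced as 50-base single reads, per the labels' protocols. The deposited tables hold raw counts of reads for each gene and, from the authors, FPKM values for the same genes. The submitters' processing notes name R 3.6.1, DESeq2 1.24.0, STAR 2.5.2b and Picard 2.19.2, and the builds GRCm38/mm10 and GRCh38/hg38, with no roles; the read counter is not given in the sources used here. Gene coordinates in the deposited count table equal those of GENCODE M21 (GRCm38) for all 35 members. Deposited FPKM equalled the count times 1 constant per gene, divided by the median-of-ratios size factor of the library, so the deposited FPKM are comparable between libraries.

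The members, lists and tests were chosen with earlier results of these data known. Counts were filtered by filterByExpr (15519 genes kept, at least 99.92% of each library), scaled by TMM and tested with edgeR 4.0.16 (quasi-likelihood F test, robust, two-sided, genotype as the term) in R 4.3.3, with Benjamini-Hochberg adjustment over all genes tested and a threshold of 0.05. SE and 95% intervals were derived from the quasi-likelihood p. Total counts were 19956153 to 55900237 a library, and CPM use the totals of the genes kept by the filter times the TMM factors. Reads carry no molecular identifiers, so intervals on counts cover counting error only. That replicates are biological rests on the series text. Alternatives were other scalings and filters, DESeq2 1.42.0, limma 3.58.1 (voom with sample weights, or log2 FPKM with a pseudocount of 1 or 0.1, on which low genes show smaller fold changes), thinning, a replicate block, GC offsets and leaving out each library; GC offsets together with leaving out HDAC1-cKO replicate 2 were chosen after seeing the data. For the limma fits on FPKM the genes kept by the count filter were used. The edgeR fit was tested on simulated data. Named genes were all members, with full statistics for the 3 of lowest p in each complex and for Hdac1, Hdac2 and Hdac3. Shared 50-base stretches, exon overlaps, GC content and length come from GENCODE M21. Figures were drawn with matplotlib 3.10.9. Same-numbered libraries of the genotypes were checked for pairing, with correlations of deviations of 0.204, 0.016 and -0.128, and were not treated as pairs.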

Additional observations from a re-analysis of the deposited data

How the results depend on the processing

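Over all genes, the numbers higher and lower in HDAC1-cKO were 152 and 154; they were 698 and 665 with DESeq2, 770 and 819 with limma-voom, 271 higher with GC offsets, 243 lower with no low-count filter, 405 and 413 at an adjusted p under 0.1, 302 and 361 with GC offsets and without HDAC1-cKO replicate 2, and 15 to 258 and 10 to 368 without 1 library (the highest without HDAC1-cKO replicate 2). With the replicate block they were 34 and 31, and 98 lower with the block and GC offsets; replicate numbers did not pair the libraries, since only 1 of 3 HDAC1-cKO libraries correlated best with its own number. Among members, 1 was higher (Rcor2) with no low-count filter, DESeq2, FPKM with either pseudocount and thinned counts, 2 with limma-voom (Rcor2 and Rbbp7), 1 lower (Tbl1x) with DESeq2 and limma-voom, and 1 in each direction at an adjusted p under 0.1. The last count stands beside 405 higher and 413 lower of the 15519 genes tested. No member was called without any 1 library, with the block or with the GC offsets. Of all genes, 3.88% were called without HDAC1-cKO replicate 2, and 0.161% to 0.303% without any other library. The share was 0.419% with the block, 3.14% with GC offsets and 1.33% with both. At shares this low, 0 of 34 says little about the members. Over all alternatives 23 of 34 members kept their sign.

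The other 11, none of them called, changed sign around 0. With upper-quartile scaling Arid4a was 0.003, Rbbp4 0.006 and Gatad2b 0.010; on total counts Arid4a was 0.024, Rbbp4 0.027 and Gatad2b 0.031; with GC offsets Arid4a was 0.081, Rbbp4 0.060 and Gatad2b 0.039; and with block and GC offsets Arid4a was 0.093, Rbbp4 0.058 and Gatad2b 0.051. Arid4a was also 0.007 thinned and 0.022 with GC offsets without HDAC1-cKO replicate 2, a setting chosen after seeing the data. Mta1 was -0.017 with no filter, -0.053 with limma-voom, -0.002 and -0.003 on FPKM with pseudocounts of 1 and 0.1, -0.059 with GC offsets, -0.061 with block and GC offsets and -0.037 with GC offsets without HDAC1-cKO replicate 2. Dnttip1 was -0.007 with no filter, -0.040 with limma-voom and with GC offsets, -0.033 with block and GC offsets and -0.007 in the last setting. Rcor1 was 0.016 on total counts, 0.134 with limma-voom, 0.003 thinned and 0.140 in the last setting, Gps2 -0.027 with limma-voom, and Sap130 -0.028 in the last setting. Without 1 library the log2 differences ran from -0.336 to 0.011 for Sap30l, -0.044 to 0.336 for Sap130, -0.125 to 0.111 for Arid4a, -0.075 to 0.438 for Ing2, -0.119 to 0.139 for Mta1, -0.138 to 0.128 for Gatad2b, -0.288 to 0.194 for Rcor1, -0.034 to 0.212 for Kdm1a, -0.105 to 0.085 for Dnttip1, -0.031 to 0.116 for Gps2 and -0.125 to 0.385 for Hdac2. Paralog share differences ran from -2.03 to 1.39 percentage points for Sin3a, -0.727 to 5.25 for Sap30 and -0.4 to 1.36 for Mta1. The cause of these changes was not tested. With 3 libraries a genotype, a median SE of 0.19 on the log2 scale over the members limits what could be called, and Rcor2 rests on 127 reads in HDAC1-cKO and 9 in WT.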
